A study of Mus musculus with 6 samples.

Results

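Sox1, Sox2, Sox3, Sox21, Sox8 and Sox9 are the SOX transcription factor genes of cortical progenitors described here, taken by gene symbol from the deposited count table. All 6 have a row among its 24041 genes, and all 6 passed the filter on low counts, with 14451 genes tested in all. The libraries came from mouse cerebral cortices: cells that carried electroporated plasmids were sorted by their green fluorescent protein (GFP), and their RNA was sequenced. In 3 libraries the plasmids were GFP with wild-type PRPF6, and in the other 3 GFP with mutant PRPF6, a protein of the particle that completes the spliceosome. The mutation, the promoter that drives the plasmid, the age and strain of the mice, and whether libraries came from separate animals are not stated by the labels. The p-values therefore describe the spread among these 6 libraries only, and part of it may be technical. No library lacks a PRPF6 plasmid, so each value compares mutant with wild-type PRPF6 and neither with unmanipulated cells.

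SOX proteins bind DNA through a shared high-mobility-group domain and usually act with partner factors such as POU or PAX proteins. The SoxB1 genes Sox1, Sox2 and Sox3 keep neural progenitors undifferentiated, and the SoxB2 gene Sox21 counters SoxB1 activity. The SoxE genes Sox8 and Sox9 take part in neural stem cell maintenance and in the switch to glia. In the developing cortex these genes are active mainly in radial glia, the stem cells that line the ventricle, and are switched off as neurons form.

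In every member the mean was higher with mutant PRPF6, and in Sox2, Sox3, Sox8, Sox9 and Sox21 each mutant library was higher than every wild-type library. The sizes were modest, from a 1.15-fold difference for Sox1 to 1.86-fold for Sox9. By the quasi-likelihood test of edgeR, adjusted over all tested genes by the Benjamini-Hochberg method, 0 of the 6 members passed a threshold of 0.05 (adjusted p = 1.00 for each), and 0% of all tested genes did. At an unadjusted p under 0.05 stood 5 of the 6 members, all higher with mutant PRPF6, where 2.18% of all tested genes were higher at that level. The share of all tested genes whose mutant libraries all lay above the wild-type ones was 4.60%, and 49.8% of genes had a higher fitted mean with the mutant. The members were chosen with earlier results of these libraries known, so these counts describe them and are no independent support. An exact permutation test of 3 libraries against 3 cannot give a two-sided p below 0.10, which is the value for each of the 5 members without overlap; for Sox1 it was 0.50.

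**Figure D1:**
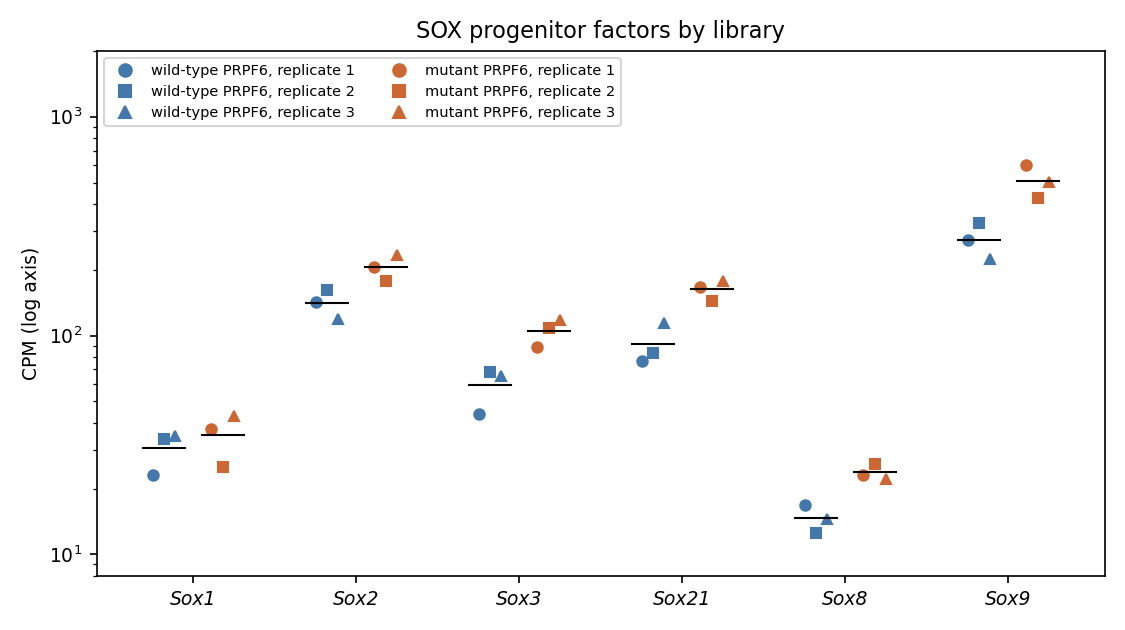
Depth-scaled counts (CPM, log axis) of the 6 SOX genes in each library, with the 3 wild-type PRPF6 libraries in blue, the 3 mutant PRPF6 libraries in orange, and black lines at group means. The groups overlap for Sox1, where mutant replicate 2 is at 25.1 CPM, and are separate for the other genes, as in Sox9 with 224 to 325 CPM against 423 to 602 CPM.

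Levels are given in CPM, that is, counts scaled to a common library total, and 1 count was worth 0.0164 to 0.0228 CPM. Library totals were 45115122 to 60600617 expected counts, so that even Sox8, the least abundant member, rested on at least 729 counts in each library. Prpf6 itself, whose counts may include the plasmid's transcript, averaged 141 ± 22.6 CPM in the wild-type group and 134 ± 10.01 CPM in the mutant group (SD, n = 3 each). Markers of the labelled tissue were present: Lhx2, a transcription factor of the developing cortex, was at 480 to 878 CPM over the libraries, and Pax6, which marks cortical radial glia, at 85.0 to 167 CPM. Some libraries stood apart by markers of other cells. Wild-type replicate 3 held 17140 CPM of red blood cell genes and 1665 CPM of meningeal fibroblast genes, against 81.8 to 2872 and 33.6 to 173 CPM elsewhere. Mutant replicate 1 had the lowest Neurod2, a transcription factor of cortical neurons, at 78.4 CPM against 279 to 501 CPM elsewhere, and mutant replicate 2 the most microglial RNA, 799 CPM against 31.2 to 293 CPM. In sorted bulk samples, fewer cells of a type and less RNA per cell cannot be told apart.

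Sox2, the SoxB1 factor that defines neural stem cells from the neural plate onwards, stood in the wild-type libraries (replicates 1, 2, 3) at 142, 162 and 118 CPM, and in the mutant ones at 206, 177 and 234 CPM. The closest values across groups were 162 CPM in wild-type replicate 2 and 177 CPM in mutant replicate 2. The means were 141 ± 21.7 and 206 ± 28.5 CPM (SD, n = 3 each), which gives 0.55 as the log2 difference, with a standard error (SE) of 0.18. As a fold this is 1.46, with a 95% interval of 1.10 to 1.94 (edgeR, unadjusted p = 0.0146). Without wild-type replicate 3 the log2 difference was 0.44 (unadjusted p = 0.0562), and without mutant replicate 3 it was 0.44 (unadjusted p = 0.0519).

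Sox2 (chromosome 3, 34650405 to 34652461, plus strand, GRCm38) is a gene of 1 exon that lies within the non-coding gene Sox2ot. Sox2ot was at 54.5, 62.5 and 43.4 CPM in the wild-type libraries and at 123, 61.6 and 74.4 CPM in the mutant libraries. Its groups overlapped, and mutant replicate 1 stood highest (log2 difference 0.69 ± 0.29, SE). Only the spans of these genes were compared, so whether their exons share a stretch was not checked. Counts of Sox2 were whole numbers in every library, while those of Sox2ot were not whole in 3 libraries. RSEM splits reads that fit more than 1 gene. Of the other members, Sox1 and Sox3 had counts that were not whole in wild-type replicate 3 (1749.21 and 3269.79).

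Sox3, the X-linked SoxB1 gene, overlaps Sox2 in function and in the progenitors that express it. Its wild-type libraries, in the same order, held 44.0, 68.1 and 65.3 CPM, and its mutant libraries 88.3, 108 and 118 CPM. Every mutant library was thus above the highest wild-type one, with means of 59.1 ± 13.2 and 105 ± 15.0 CPM (SD, n = 3 each). The log2 difference was 0.82 ± 0.22 (SE), or 1.77-fold with a 95% interval of 1.24 to 2.51 (edgeR, unadjusted p = 0.00561). It ranged from 0.65 without wild-type replicate 1, the lowest library, to 0.93 without wild-type replicate 2. The gene has 1 exon (chromosome X, 60891366 to 60893430, minus strand, GRCm38), and no annotated gene overlaps it.

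Sox1, the remaining SoxB1 gene, was low, and its groups overlapped. It was at 23.0, 33.8 and 34.9 CPM in the wild-type libraries and at 37.5, 25.1 and 42.8 CPM in the mutant libraries, so that mutant replicate 2 lay below wild-type replicates 2 and 3. The log2 difference was 0.20 ± 0.29 (SE), with an interval of −0.47 to 0.87 that holds 0 as well as the value of Sox2 and Sox3 (edgeR, unadjusted p = 0.512). Without wild-type replicate 1 or mutant replicate 3 it was 0.032 in either case, and without mutant replicate 2 it was 0.39. Sox1 (chromosome 8, 12395295 to 12400126, plus strand, GRCm38) also has 1 exon. The annotated genes Sox1ot and Gm25239 overlap it and have no row under these symbols among the deposited counts.

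Sox21, the SoxB2 gene that promotes neurogenesis by opposing SoxB1 factors, held 76.5, 83.4 and 114 CPM in the wild-type libraries. The mutant libraries held 166, 144 and 178 CPM. The groups did not overlap, and wild-type replicate 3, the library with the most blood and meningeal RNA, was the nearest to the mutant libraries. The means were 91.4 ± 20.03 and 163 ± 17.1 CPM (SD, n = 3 each), a 1.78-fold difference with a 95% interval of 1.31 to 2.43 (log2 difference 0.83 ± 0.20, SE; edgeR, unadjusted p = 0.00264). The log2 difference was 1.03 without wild-type replicate 3 and 0.72 without wild-type replicate 1. Sox21 (chromosome 14, 118233232 to 118237030, minus strand, GRCm38) has 1 exon. It overlaps the non-coding gene Gm4675, which has no row under this symbol among the deposited counts. Sox14, the other SoxB2 gene, was at 0, 9.58 and 22.3 CPM with wild-type and at 16.8, 3.88 and 24.4 CPM with mutant PRPF6, a spread within each group wider than the difference between their means.

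Sox9, the SoxE factor that drives stem cell maintenance and later astrocyte formation, was the most abundant member in CPM. Its wild-type libraries held 274, 325 and 224 CPM and its mutant libraries 602, 423 and 504 CPM. The groups were separate, with mutant replicate 1 the highest and wild-type replicate 3 the lowest. The means were 275 ± 50.3 and 510 ± 89.2 CPM (SD, n = 3 each), a 1.86-fold difference with a 95% interval of 1.37 to 2.52 (log2 difference 0.89 ± 0.19, SE). Its unadjusted p of 0.00161 in edgeR ranked 4 among all tested genes, from the smallest. DESeq2, run as an alternative, gave Sox9 an adjusted p of 0.0198 and called it with 9 other genes, 0.309% of the 3238 genes to which it gave an adjusted p. In DESeq2 the adjusted p was 0.0643 for Sox21 and 0.430 for Sox2, and Sox1, Sox3 and Sox8 were given none. The Sox9 call thus rests on the choice of tool. Its log2 difference was 0.76 without mutant replicate 1, the highest library, 0.77 without wild-type replicate 3, the lowest, and 0.63 without both. Sox9 (chromosome 11, 112782224 to 112787760, plus strand, GRCm38) has 3 exons, and no annotated gene overlaps it.

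Sox8, the SoxE gene that shares functions with Sox9 in glia, was at 16.9, 12.6 and 14.6 CPM in the wild-type libraries and at 23.0, 25.9 and 22.1 CPM in the mutant libraries. The groups were separate and narrow, with means of 14.7 ± 2.16 and 23.7 ± 2.00 CPM (SD, n = 3 each). The difference was 1.61-fold with a 95% interval of 1.03 to 2.52 (log2 difference 0.69 ± 0.28, SE; edgeR, unadjusted p = 0.0380). With 1 library left out at a time, the log2 difference ran from 0.59 to 0.81, and the unadjusted p was under 0.05 only without wild-type replicate 1. Coding transcripts of Sox8 (chromosome 17, 25565892 to 25570686, minus strand, GRCm38) have 2 to 3 exons. The antisense gene 2810468N07Rik, whose span overlaps that of Sox8, was at 2.31 to 7.10 CPM. Whether their exons overlap was not checked, and the strand setting is not known. Counts of Sox8 were whole numbers in every library. Sox10, the SoxE gene of neural crest and oligodendrocyte precursors, had 0 counts in 4 libraries, 182 counts in wild-type replicate 3 and 44 in mutant replicate 1.

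**Figure D2:**
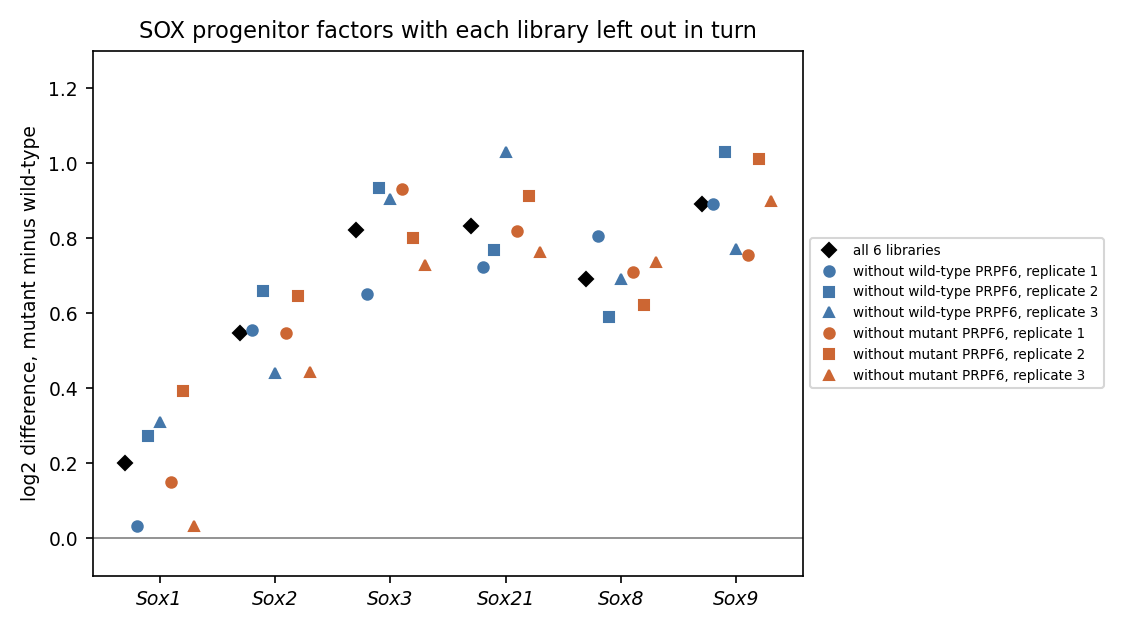
Log2 differences (mutant minus wild-type PRPF6) of the 6 SOX genes with all 6 libraries (black diamonds) and with each library left out in turn. All values lie above 0; those of Sox1 reach down to 0.032 and those of Sox9 stay between 0.76 and 1.03.

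The stretches just upstream of Sox2, Sox21 and Sox8 are printed because these members, whose groups did not overlap, have a promoter window in RefSeq on GRCm38.p6 that ends at or before the annotated transcript. Each holds the 250 bases before the RefSeq start, read along the gene's strand from 5′ to 3′. Capitals mark matches to 7 short motifs on either strand, chosen after the letters were seen: the SOX core (ACAAT), a SOX variant (ACAAAG), the octamer (ATGCAAAT), the RBPJ motif (TGGGAA), the CCAAT box (CCAAT), the TATA box (TATAAA) and the GC box (GGGCGG). The RefSeq start of Sox2 lies 410 bases before the GENCODE start, while those of Sox21 and Sox8 coincide with it. The window of Sox1 ends within the GENCODE transcript and is not printed, and Sox3 and Sox9 had no entry.
Sox2, chr3:34649745-34649994, plus strand: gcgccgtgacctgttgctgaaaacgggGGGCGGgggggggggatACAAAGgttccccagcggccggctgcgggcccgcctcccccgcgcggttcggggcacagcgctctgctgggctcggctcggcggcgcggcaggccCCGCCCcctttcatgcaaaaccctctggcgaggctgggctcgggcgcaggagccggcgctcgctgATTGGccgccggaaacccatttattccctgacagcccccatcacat
Sox21, chr14:118237031-118237280, minus strand: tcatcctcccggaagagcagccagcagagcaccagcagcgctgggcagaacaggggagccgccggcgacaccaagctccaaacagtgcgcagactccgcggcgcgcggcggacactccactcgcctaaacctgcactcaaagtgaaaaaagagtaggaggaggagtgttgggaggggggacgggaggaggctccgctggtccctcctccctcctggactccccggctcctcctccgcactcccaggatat
Sox8, chr17:25570687-25570936, minus strand: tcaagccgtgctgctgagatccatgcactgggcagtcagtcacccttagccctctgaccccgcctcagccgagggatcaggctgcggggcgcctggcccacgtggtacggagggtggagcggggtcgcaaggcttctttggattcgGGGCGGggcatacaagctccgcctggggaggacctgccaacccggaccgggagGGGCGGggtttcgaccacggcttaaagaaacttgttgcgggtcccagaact

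The Sox2 window held 2 GC boxes, a CCAAT box on the opposite strand and the SOX variant ACAAAG, which lay 206 to 201 bases before the start. The Sox8 window held 2 GC boxes, and the Sox21 window held none of the 7 motifs. Among all 32851 RefSeq windows of this length, 32.7% held a GC box, 33.8% a CCAAT box, 16.5% the SOX variant and 27.7% the SOX core ACAAT. The windows were rich in G and C, at 72.0% for Sox2, 65.2% for Sox21 and 65.6% for Sox8, against a median of 52.4% over all windows. No motif was shared by all 3, and a match in letters is not a measured binding site.

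Levels of different genes were compared as CPM per kilobase of exon. With wild-type PRPF6 the order was Sox2 (68.4 ± 10.5), Sox9 (66.4 ± 12.2), Sox3 (28.6 ± 6.37), Sox21 (24.05 ± 5.27), Sox1 (6.33 ± 1.36) and Sox8 (4.70 ± 0.692; CPM per kilobase, SD, n = 3). With mutant PRPF6 it was Sox9 (123 ± 21.6), Sox2 (99.97 ± 13.9), Sox3 (50.7 ± 7.28), Sox21 (42.9 ± 4.49), Sox8 (7.59 ± 0.642) and Sox1 (7.27 ± 1.88). The libraries of Sox2 and Sox9, of Sox3 and Sox21, and of Sox1 and Sox8 overlapped on this scale in both groups, and between the pairs the levels were separate. Within libraries, Sox9 was above Sox2 in all 3 mutant ones (102 against 86.1 CPM per kilobase in replicate 2 and 122 against 114 in replicate 3, with a wider gap in replicate 1). In the 3 wild-type ones it was slightly below (66.3 against 68.9, 78.60 against 78.64 and 54.3 against 57.6). The order of these 2 genes depends on the GENCODE exon lengths used, 2057 bases for Sox2 and 4135 for Sox9. The RefSeq start of Sox2 lies 410 bases further upstream, and a longer Sox2 would lower its level on this scale. Their order with wild-type PRPF6 is therefore not settled. Sox3 was above Sox21 in each library but mutant replicate 1, and Sox1 above Sox8 in each but replicate 1 of the wild-type and replicate 2 of the mutant group. Among 19591 protein-coding genes with a length, Sox9 held rank 738 with wild-type and rank 344 with mutant PRPF6 by this level, and Sox2 ranks 708 and 440.

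Ratios of 2 genes within a library need no scaling for depth. The ratio of Sox9 to Sox2 counts was 1.93, 2.01 and 1.89 in the wild-type libraries and 2.92, 2.39 and 2.15 in the mutant libraries, so the mutant libraries were all higher. This is a difference of 0.34 on the log2 scale (exact permutation p = 0.10, two-sided and the lowest possible here; 0.60 after Benjamini-Hochberg adjustment over the 6 ratios computed). For Sox21 to Sox2, the SoxB2 to SoxB1 balance, the ratio was 0.540, 0.516 and 0.963 in wild-type and 0.808, 0.815 and 0.760 in mutant libraries. Wild-type replicate 3 exceeded all mutant libraries there, and the groups overlapped (exact permutation p = 0.40, adjusted 0.60). The log2 ratios of Sox3 to Sox2 (0.29 higher with the mutant), Sox1 to Sox2 (lower by the log2 value −0.36) and Sox8 to Sox9 (−0.20) also overlapped between groups, with exact permutation p of 0.40, 0.30 and 0.50.

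**Figure D3:**
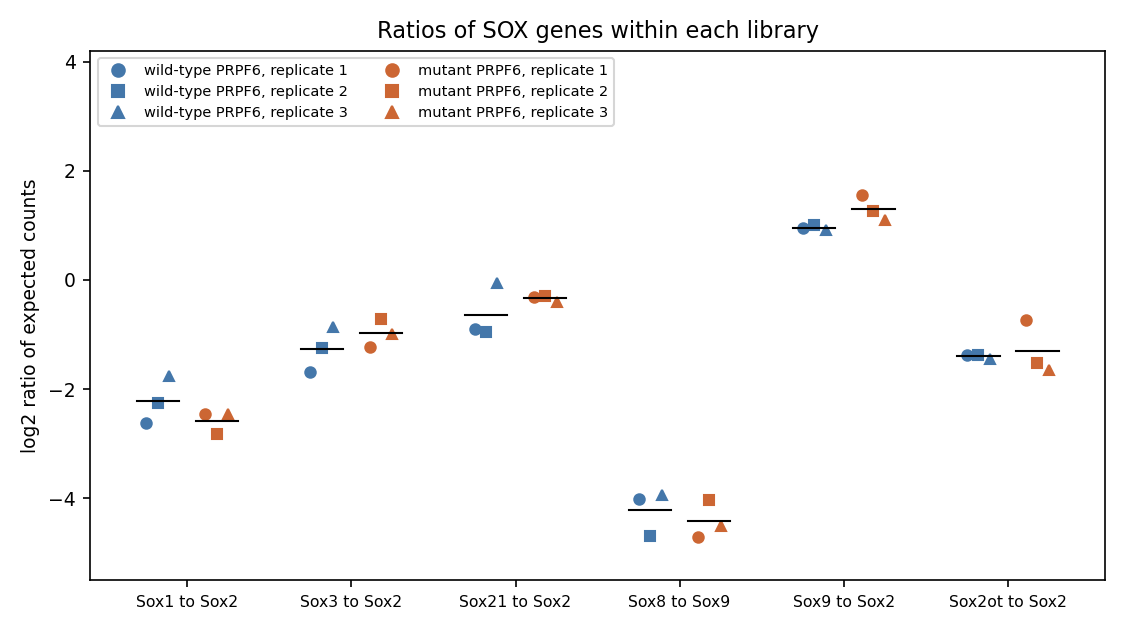
Log2 ratios of expected counts of 2 genes within each library, with wild-type PRPF6 libraries in blue, mutant PRPF6 libraries in orange, and black lines at group means. Only the ratio of Sox9 to Sox2 is separate between groups, at 0.92 to 1.01 with wild-type and 1.10 to 1.55 with mutant PRPF6.

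The other SOX genes lay in both directions. Of 13 other SOX genes with a row, 9 were tested: 3 had a higher and 6 a lower fitted mean in the mutant group (median log2 difference −0.14, against 0.76 over the members and −0.0013 over all tested genes). In edgeR, limma-voom and DESeq2, 0 of the 9 passed over all genes. DESeq2 gave no adjusted p to 11213 of the 14451 genes, and those could not pass there. Sox11, a SoxC factor of young neurons, was at 3068, 1626 and 1727 CPM with wild-type and at 1169, 1487 and 1395 CPM with mutant PRPF6 (log2 difference −0.66 ± 0.25, SE; edgeR, unadjusted p = 0.0286). Its mutant libraries all lay below the wild-type ones, as did those of 4.54% of all tested genes, and its counts are partly shared with other genes. Sox5, a SoxD factor of deep-layer neurons, was at 374, 175 and 154 CPM and at 96.3, 196 and 111 CPM, with overlap. Sox13, another SoxD gene, was at 16.5, 35.3 and 13.6 CPM with wild-type and at 94.9, 31.5 and 39.8 CPM with mutant PRPF6 (log2 difference 1.34 ± 0.51, SE; edgeR, unadjusted p = 0.0292). Its groups overlapped, and mutant replicate 1 stood far above the rest. Sox4, Sox6 and Sox12 differed by −0.15 ± 0.18, −0.14 ± 0.26 and −0.066 ± 0.16 on the log2 scale (SE).

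Sox14, Sox18 and Sox30 were too variable to place, each with an SE above 1 on the log2 scale. Sox7, Sox15 and Sox17, like Sox10, did not pass the filter. Sox7, Sox17 and Sox18, factors of blood vessel cells, had their highest values in wild-type replicate 3, at 307, 269 and 453 counts, and their next highest in mutant replicate 2, at 52, 87 and 92 counts.

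**Figure D4:**
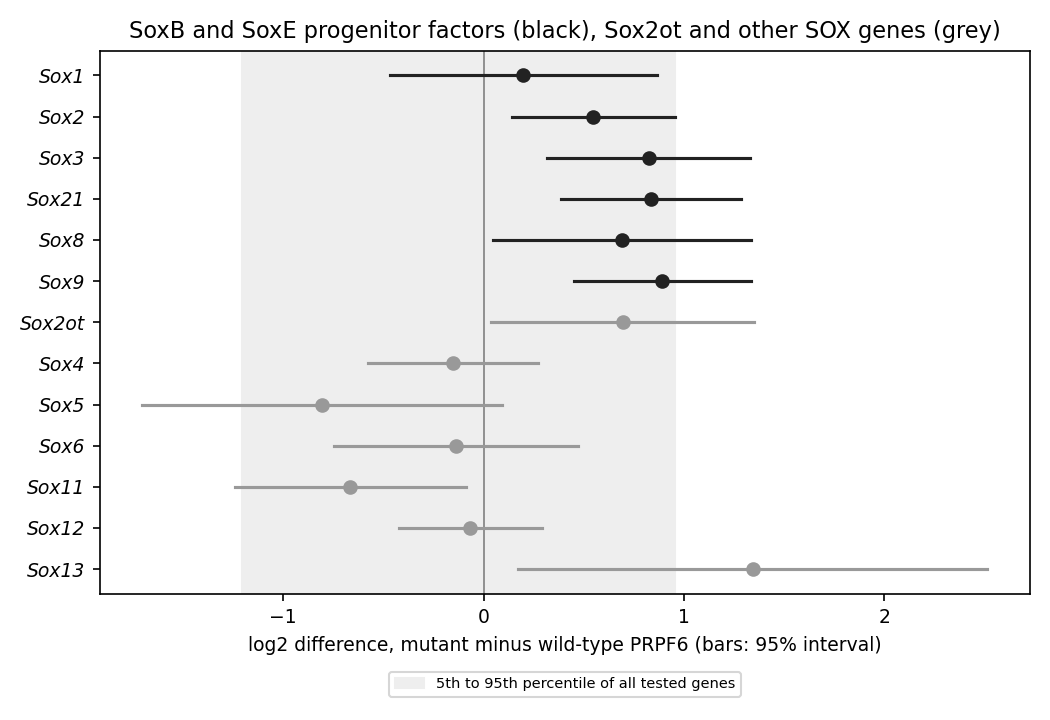
Log2 differences (points) with 95% intervals (bars) for the 6 SOX progenitor genes in black and for Sox2ot and other SOX genes with an SE under 1 in grey, over a band from the 5th to the 95th percentile of all tested genes. The black points lie between 0.20 and 0.89, inside the band that ends at 0.95, while Sox11 and Sox5 lie below 0.

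Signals that maintain SOX expression in progenitors, chiefly Notch, FGF and Hedgehog, were read from a list of 17 genes. Of these 15 had a higher fitted mean with mutant PRPF6 and 2 a lower one (median log2 difference 0.76). In edgeR 6 with higher values reached an unadjusted p under 0.05, where 2.18% of all tested genes were higher at that level. Over all genes 0 passed in edgeR or limma-voom. DESeq2 called 1 of the 17, Fgfr3 (adjusted p = 0.02835). Fgfr3, a receptor of fibroblast growth factors in radial glia, was at 153, 163 and 102 CPM with wild-type and at 281, 231 and 279 CPM with mutant PRPF6. Its groups were separate (log2 difference 0.92 ± 0.20, SE). Notch1, a receptor that keeps progenitors undifferentiated, was at 114 ± 22.9 and 193 ± 25.4 CPM (SD, n = 3 each), and Notch3 at 37.8 ± 10.2 and 99.1 ± 52.6 CPM. Notch3 was spread more widely because mutant replicate 1 reached 160 CPM.

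Partner factors of SOX proteins showed no common direction: of 10, 5 had a higher and 5 a lower fitted mean, with a median log2 difference of 0.022. Pax6, which acts with Sox2, was at 113 ± 41.8 and 145 ± 18.8 CPM (SD, n = 3 each), and the groups overlapped. The chromatin remodeller Chd7 was at 473 ± 98.0 and 642 ± 196 CPM, also with overlap, and the POU factor gene Pou3f1 at 141 ± 23.7 and 107 ± 12.3 CPM. Of 14 genes reported elsewhere as targets of SOX2, SOX3 or SOX9, 12 were tested. Of these 8 had a higher and 4 a lower fitted mean (median 0.36). In edgeR 2 with higher values reached an unadjusted p under 0.05, where 2.18% of all tested genes were higher at that level. Over all genes 0 passed in edgeR, limma-voom or DESeq2, though genes without an adjusted p in DESeq2, such as Col9a1 and Col11a2, could not pass there. Notch1, which is also in this list, had the smallest p. Hes5, a Notch effector, was at 161, 398 and 224 CPM with wild-type and at 535, 260 and 1002 CPM with mutant PRPF6, so that the groups overlapped. Col2a1, a collagen gene controlled by SOX9 in cartilage, was at 158 ± 24.8 and 207 ± 49.9 CPM.

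Radial glia markers and neuron markers were read beside the SOX genes. All 12 radial glia markers had a higher fitted mean with mutant PRPF6 (median 0.66), and all 10 neuron markers had a lower one (median −0.87). Of the radial glia markers 4 stood at an unadjusted p under 0.05 in edgeR, where 2.18% of all tested genes were higher at that level. The mutant libraries all lay above the wild-type ones in 1 of the 12 (4.60% of all tested genes). They all lay below in 2 of the 10 neuron markers (4.54%). Of the neuron markers 4 stood at an unadjusted p under 0.05, where 1.20% of all tested genes were lower at that level. In edgeR, limma-voom and DESeq2, 0 of either list passed over all genes, and some of these markers were part of the results known beforehand. A gene to which DESeq2 gave no adjusted p could not pass there. The radial glia list summed to 1746 to 2482 CPM with wild-type and 2369 to 4585 CPM with mutant PRPF6, and the neuron list to 2970 to 4122 CPM and 1703 to 3099 CPM, so the sums overlapped in both. In mutant replicate 2 the radial glia sum was 2369 CPM, below the 2482 CPM of wild-type replicate 2. Without mutant replicate 1 the medians were nearer 0, at 0.37 for radial glia and −0.45 for neuron markers, with 12 of 12 higher and 10 of 10 lower. Without wild-type replicate 3 they were 0.54 and −0.69, with 11 of 12 higher and 9 of 10 lower. With both of these libraries left out they were 0.22 and −0.51, with 10 of 12 higher and 9 of 10 lower. Tnc, an extracellular matrix gene of radial glia, was at 19.8, 9.64 and 25.7 CPM with wild-type and at 81.6, 49.4 and 36.5 CPM with mutant PRPF6. Snap25, a gene of vesicle release in neurons, was at 72.6 ± 15.3 and 34.4 ± 11.7 CPM (SD, n = 3 each). What part the mix of progenitors and neurons has in the SOX values was not tested.

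Proneural factors, which SoxB1 proteins hold back, were split, with 5 of 9 higher and 4 lower in fitted mean (median 0.012). Hes6 was at 263 ± 26.9 and 327 ± 70.3 CPM, and Neurod2 at 364 ± 119 and 222 ± 125 CPM (SD, n = 3 each), with overlap in both genes. Of 7 intermediate progenitor markers, 5 had a higher and 2 a lower fitted mean (median 0.29), with Btg2, an antiproliferative gene, at 147 ± 22.6 and 234 ± 11.6 CPM (SD, n = 3 each). Btg2 was the 1 gene of this list that DESeq2 called (adjusted p = 0.04935). Cycling markers had higher fitted means in 7 of 8 genes with a median log2 difference of 0.099, and 0 reached an unadjusted p under 0.05. The direction turned without mutant replicate 3, with 0 of 8 higher and 8 lower (median −0.19). Leaving out wild-type replicate 3 gave 4 higher and 4 lower. Summed, the 8 cycling markers lay at 1650 to 2606 CPM with wild-type and at 1485 to 3164 CPM with mutant PRPF6, the highest in mutant replicate 3.

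Genes of the glial programme that SOX9 takes part in were higher in fitted mean in 8 of 11 tested genes and lower in 3 (median 0.37; 0.19 without mutant replicate 1). Aldh1l1, an astrocyte enzyme, was at 1.25, 3.07 and 2.92 CPM with wild-type and at 73.8, 15.1 and 4.49 CPM with mutant PRPF6. Its groups were separate (log2 difference 3.69 ± 0.98, SE; edgeR, unadjusted p = 0.00528), and mutant replicate 1 stood far above the other mutant libraries. Zbtb20, a transcription factor of progenitors and glia, was at 156 ± 25.9 and 248 ± 76.4 CPM (SD, n = 3 each), and Nfib, a nuclear factor of gliogenesis, at 1879 ± 1060 and 1204 ± 288 CPM. Oligodendrocyte precursor markers, of which Olig1 and Olig2 mark a lineage that also expresses Sox8 and Sox9, summed to 203 CPM in mutant replicate 1 and to 18.4 to 80.9 CPM elsewhere. In this list 4 of 5 tested genes had a higher fitted mean and 1 a lower one, and without mutant replicate 1 the direction turned, with 1 higher and 4 lower. Mutant replicate 1 was also the highest library for Sox9, whose log2 difference without it was 0.76. The part of these cells in the Sox9 value was not tested.

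Markers of other cells varied by library. All 12 red blood cell genes (median log2 difference −3.18), 8 of 9 meningeal fibroblast genes (−2.62) and 4 of 4 tested endothelial genes (−1.56) had lower fitted means with mutant PRPF6. Wild-type replicate 3 held the highest sum of each, and without it the median was −1.21 for red blood cell genes, all 12 still lower, and −0.91 for meningeal genes, with 7 of 9 lower. Without it the endothelial direction turned, with 3 of 4 genes higher (median 2.65). Among them were Cldn5 (log2 difference 3.63 ± 2.33, SE) and Kdr (1.67 ± 1.69, SE), each with a wide SE. Of the libraries kept, mutant replicate 2 had the most of both. It held 6.11 CPM of Cldn5, where the rest ranged from 0.103 to 0.274 CPM. Of Kdr it held 15.5 CPM, where the rest ranged from 0.172 to 4.04 CPM. For these genes the turn thus rests on low levels and mainly on mutant replicate 2. Pericyte genes, split into 2 higher and 3 lower, also turned, with 4 of 5 higher. Microglia genes were higher in 7 of 8, with mutant replicate 2 at 799 CPM, and without that library 0 of 8 were higher and 8 lower. Interneuron markers, of which 4 of 7 were higher, summed to 146 to 857 CPM with wild-type and 298 to 737 CPM with mutant PRPF6. Neural crest and Schwann cell markers summed to 5.72 to 27.8 CPM in all libraries. Their part in the SOX values was not tested. With 2 libraries left out, those with the most blood RNA (wild-type replicate 3) and the least Neurod2 (mutant replicate 1), the log2 differences were 0.44 for Sox2, 1.01 for Sox3, 0.71 for Sox8, 0.63 for Sox9, 1.01 for Sox21 and 0.26 for Sox1. In that comparison of 2 libraries with 2, Sox3, Sox9 and Sox21 stood at an unadjusted p under 0.05 in edgeR.

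**Figure D5:**
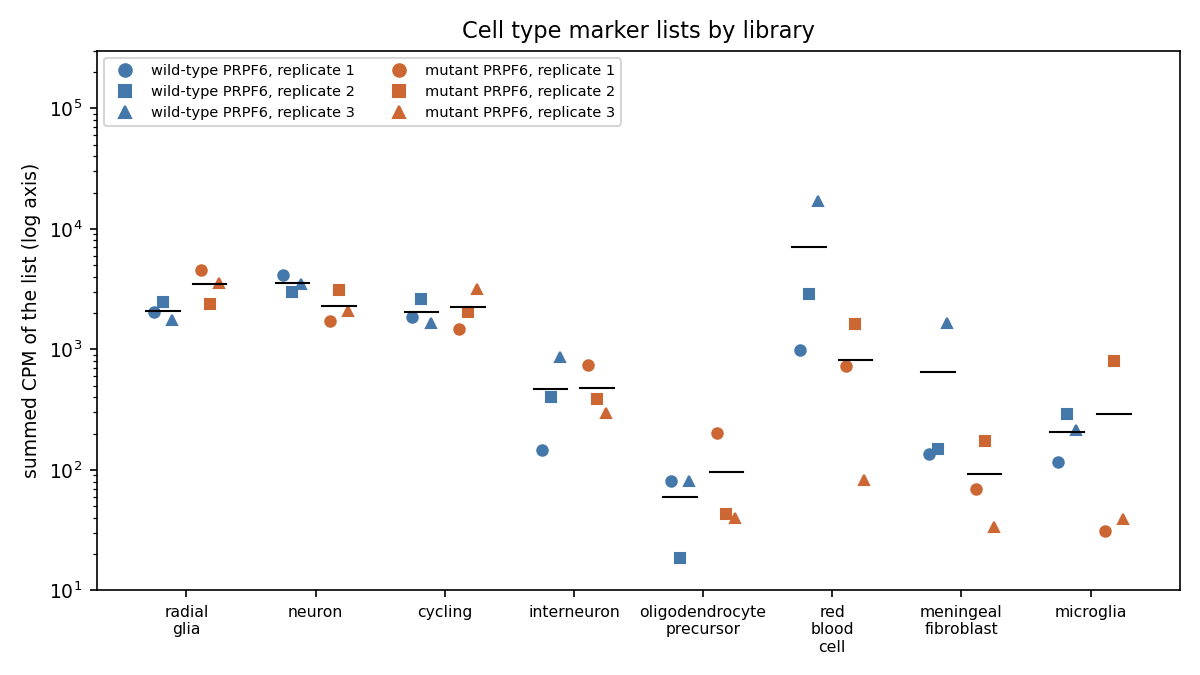
Summed CPM (log axis) of 8 lists of cell type markers in each library, with wild-type PRPF6 libraries in blue, mutant PRPF6 libraries in orange, and black lines at group means. Red blood cell markers span 81.8 to 17140 CPM and the radial glia list 1746 to 4585 CPM.

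The genes most like each member were the 3 of highest Pearson correlation of log2 CPM over the 6 libraries, among 11187 other genes with a mean of at least 5 CPM. These are descriptions over 6 libraries of 2 groups, and between 56 and 106 genes reached a correlation above 0.9 with a given member. Closest to Sox9 were Nrarp, a Notch target (r = 0.995), Pcyox1l (0.993) and Sema5b, a semaphorin (0.99). Nrarp was at 110, 137 and 85.1 CPM with wild-type and at 240, 176 and 197 CPM with mutant PRPF6, with the same highest and lowest library as Sox9. Closest to Sox8 were Snrnp200, a helicase of the spliceosome (0.995), Ndst2 (0.979) and Polr3a, a subunit of RNA polymerase III (0.979). Sox21 was closest to Wdr4 (0.995), Slc26a11 (0.99) and Gpr108 (0.979), and Sox2 to Tmem198b (0.997), Tor1aip2 (0.987) and Gins3, a replication factor (0.983). Sox3 was closest to Prkrir (0.988), Nat6 (0.985) and Opa3 (0.985), and Sox1 to Med6 (0.994), Lmbr1 (0.992) and Bola3 (0.989). Among the members, the correlation was highest between Sox2 and Sox9 (0.943), next between Sox3 and Sox21 (0.89), and lowest between Sox1 and Sox8 (−0.023).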

How the data were processed

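The authors deposited expected counts, 1 value for each gene and library without depth scaling; RSEM and mm10 are named in the submitters' processing notes. The RSEM version, annotation and strand setting are not stated there. Per the labels' protocols, a low-input SMART-Seq v4 kit amplified the cDNA, so reads are not independent molecules. Groups were taken from the labelled treatment and replicate numbers from the titles.

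The expected counts were rounded, filtered with filterByExpr and scaled with TMM factors. Differences were tested across 14451 genes with edgeR 4.0.16 (quasi-likelihood F-test with robust estimation and no covariates), with Benjamini-Hochberg adjustment over all of them and a threshold of 0.05. Intervals are 95% intervals of the fitted log2 difference. Single values were compared with exact permutation tests. Correlations used log2 CPM with a prior count of 2. Alternatives were DESeq2 1.42.0, limma-voom (limma 3.58.1), other scaling and filters, no robust estimation, a replicate block and leaving out libraries. The steps were tested on simulated data with planted log2 differences of 2 up or down, larger than that of any member. These simulations do not show how often differences of the members' size would be found.

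The members and gene lists were chosen with earlier results of these data known. Genes were named by rule: all SOX genes, Prpf6, genes overlapping a member, the 3 of smallest unadjusted p in each list, and the 3 most like each member. One marker is not reported here. GENCODE M21 (GRCm38) gave exons, lengths and coordinates, with a match by symbol for 22681 of 24041 genes.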

Additional observations from a re-analysis of the deposited data

How the results depend on the processing

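The log2 differences of the 6 SOX genes kept their sign in all 15 alternatives, 14 planned and 1 added after the data were seen. They ran from 0.032 to 0.39 for Sox1, 0.44 to 0.66 for Sox2, 0.65 to 1.01 for Sox3, 0.59 to 0.81 for Sox8, 0.63 to 1.03 for Sox9 and 0.72 to 1.03 for Sox21. No gene was called in edgeR or limma-voom under any of these, and 489 genes stood at an unadjusted p under 0.05 in edgeR and 551 in limma-voom. In edgeR that count was 1016 without mutant replicate 2 and 307 with the replicate block; the cause was not tested. DESeq2 called 10 genes, among them 1 member, Sox9, and gave no adjusted p to 11213 genes. The adjusted p of Sox9 over the alternatives ran from 0.0198 to 1.00. The number of members at an unadjusted p under 0.05, 5 with all libraries, ran from 3 to 5 with 1 library left out. It was 3 when replicate 3 of either group was left out. It was also 3 in the added alternative that leaves out 2 libraries together, wild-type replicate 3 and mutant replicate 1, where fewer samples remain. Without mutant replicate 2, the library that made the groups of Sox1 overlap, all 6 members were separate between groups. In that setting 10.9% of all tested genes had mutant libraries that all lay above the wild-type ones, since fewer libraries remain.

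With the replicate number as a block, 0 genes were called and 4 members stood at an unadjusted p under 0.05. Deviations of same-numbered libraries from their group means correlated at 0.054, 0.061 and −0.256 across genes. Same-numbered libraries also carry the same number in the deposited column names of both groups. With so few libraries, these correlations cannot decide whether same-numbered libraries were handled together. Each member rested on at least 729 counts in each library.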

Other observations

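Of the 6 SOX genes, 4 (Sox1, Sox2, Sox3 and Sox21) have a single exon. Among 329 tested protein-coding genes whose coding transcripts all have 1 exon, 166 had a higher and 163 a lower fitted mean in the mutant group (median log2 difference 0.005). Among 12813 with a coding transcript of 2 or more exons, 6439 were higher and 6374 lower, with a median of 0.002. Both members with introns, Sox8 and Sox9, lay within the range of the 4 without, or just above it: 0.69 and 0.89 against 0.20 to 0.83.

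The 10 genes called by DESeq2, named after their values were seen, all had higher estimates with mutant PRPF6. Beside Sox9 they were Pea15a (log2 difference 0.85), a phosphoprotein of astrocytes, Sema5b (1.00), Fgfr3 (0.92), Efhd2 (0.66), the endothelin receptor gene Ednrb (1.41), Nrarp (0.89), Btg2 (0.67), Tspan18 (1.48) and Qk (0.67), an RNA-binding gene of glia and progenitors. Of these Nrarp and Sema5b were also among the 3 genes whose library pattern was most like that of Sox9.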
